A study of Mus musculus with 12 samples.

Results

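C2C12 cells, a mouse line of muscle precursor cells (myoblasts), were compared after siRNA against Crebl2 and after control siRNA, without rapamycin. The comparison was defined by the sample titles, which put 6 of the 12 libraries of the study into it, 3 per siRNA. One group received an siRNA against Crebl2 and the other an siRNA against Renilla luciferase (Luc), a gene that mouse cells lack. After 3 days of knockdown both groups received ethanol for 12 hours, the vehicle of rapamycin, so every value below comes from cells that carried an siRNA and ethanol. Per the labels the Crebl2 siRNA here was 1 sequence, so effects of the sequence and of losing Crebl2 cannot be told apart. The remaining 6 libraries crossed the same siRNAs with rapamycin at 20 nM, which blocks the kinase mTOR, and serve here as a second set. Whether the 3 libraries of a group are separate cultures is not in the labels. The p-values cover the spread among libraries and no more, and that spread may be technical.

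Crebl2 encodes a small protein with a basic leucine zipper (bZIP), the domain through which the CREB and ATF factors bind DNA and pair with each other. CREB itself is activated by cyclic AMP and binds the palindrome TGACGTCA, the cyclic AMP response element. Myoblasts divide while they are fed with serum. On leaving the cell cycle they switch on myogenin, fuse into myotubes and fill them with actin, myosin and the calcium pumps and channels that run contraction.

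Libraries held 33404087 to 42891015 counts each, and 13247 genes were tested. Levels below are CPM, counts divided by the library's TMM-scaled total, and a log2 fold change is the Crebl2 siRNA minus the Luc siRNA. A gene rose or fell where the edgeR quasi-likelihood test gave a Benjamini-Hochberg adjusted p under 0.05. The leading axis of a principal component analysis of the 6 libraries carried 57% of the variance and placed the Luc libraries at −31.85 to −20.15 and the Crebl2 libraries at 23.72 to 29.22. Luc library 2 read 15 genes more than 3-fold under both other Luc libraries (each over 2 CPM there), 14 of them not protein-coding, and Luc library 3 read 9 such genes. The counts were taken to lack reads that fall on more than 1 listed transcript, which the sources used here do not state. Each gene was therefore given a countable share, the percent of its exonic bases that belong to a single listed transcript on its strand. Among the genes named below it was 12.1% for Tnc, 14% for Mef2a, 18.4% for Cebpa, 18.7% for Dcn, 19.9% for Tef, 28.5% for Mymk, 28.5% for Ly6c2, 30.5% for Nebl, 31% for Dbp, 32.6% for Psme1, 35.3% for Actb and 36.4% for Aldh1l2. It lay between 42.6% (Mymx) and 58.5% (Tubb3) for Slc2a4, Slc14a1, Hk2, Chrd, Ckm, Nop56 and Cxcl12.

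Crebl2 was lower in all 3 libraries with its siRNA. The Luc libraries held 23.8, 25.3 and 26.2 CPM and the Crebl2 libraries 4.87, 7.41 and 6.02 CPM. The groups did not overlap, and the mean was 75.7% lower (log2 fold change −2.05, SE 0.11, edgeR adjusted p = 3.7e-09). A 2-sided exact permutation test of the 6 values gave p = 0.1, the smallest that 3 libraries against 3 allow. On GRCm38 the gene runs from 134830154 to 134858931 of chromosome 6 (plus strand), and 83.1% of its exonic bases were countable.

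With Crebl2 siRNA 2836 genes rose (21.4% of those tested) and 2246 fell (17%), together 38.4%. These counts come from 1 fit of all 12 libraries. A fit of the 6 ethanol libraries alone gave 2254 rises and 2274 falls, so the excess of rises depends on the fit. The 3 libraries of each group did not overlap in 25.9% (higher) and 21% (lower) of tested genes. Most changes were small. Among the genes that rose, 847 changed by under 0.25 on the log2 scale and 1236 by 0.25 to 0.5, while 223 (1.68% of tested genes) rose at least 2-fold. The falls reached further: 387 genes (2.92%) fell at least 2-fold, 91 of them at least 4-fold, against 26 genes that rose at least 4-fold. The median log2 fold change was 0.33 among genes that rose, −0.47 among those that fell and 0.01 over all tested genes.

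**Figure D1:**
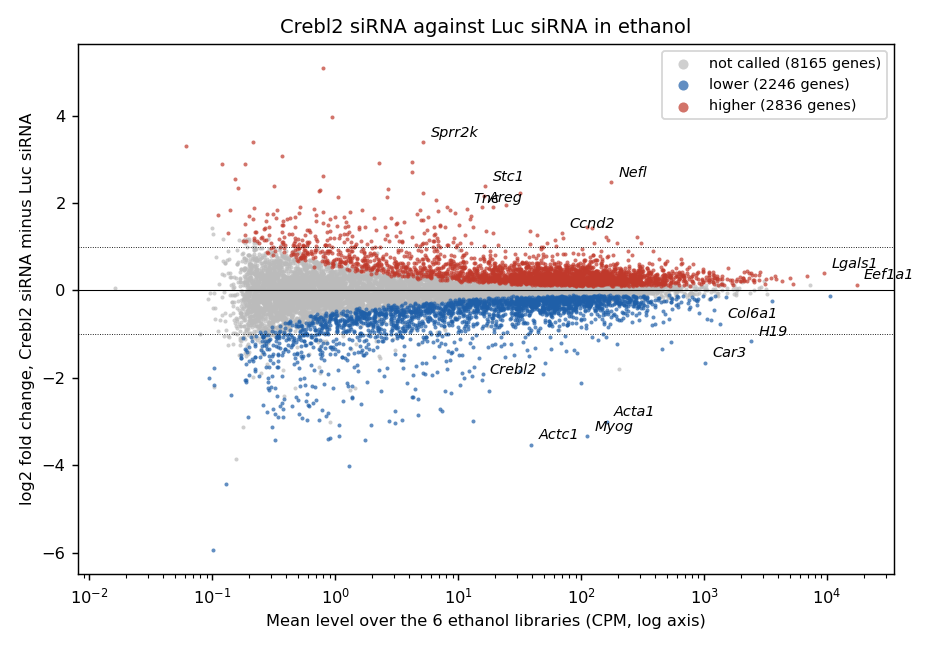
Log2 fold change (Crebl2 siRNA minus Luc siRNA, vertical) against mean level over the 6 ethanol libraries (CPM, log axis) for the 13247 tested genes, 1 point per gene, with the 2836 genes called higher in red and the 2246 called lower in blue. Dotted lines mark a 2-fold change, and the points below the lower line reach further from 0 at high level (Myog, Acta1) than those above the upper line.

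Direction went with the level of the gene. Among genes under 1 CPM, 5.01% rose and 9% fell. At 100 CPM or more, 41.2% rose and 15.2% fell. Changes of at least 2-fold ran the other way, with 2.93% higher and 5.87% lower under 1 CPM against 0.375% and 0.417% at 100 CPM or more. Summed over genes, those that rose gained 92625 CPM and those that fell lost 36526 CPM.

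**Figure D2:**
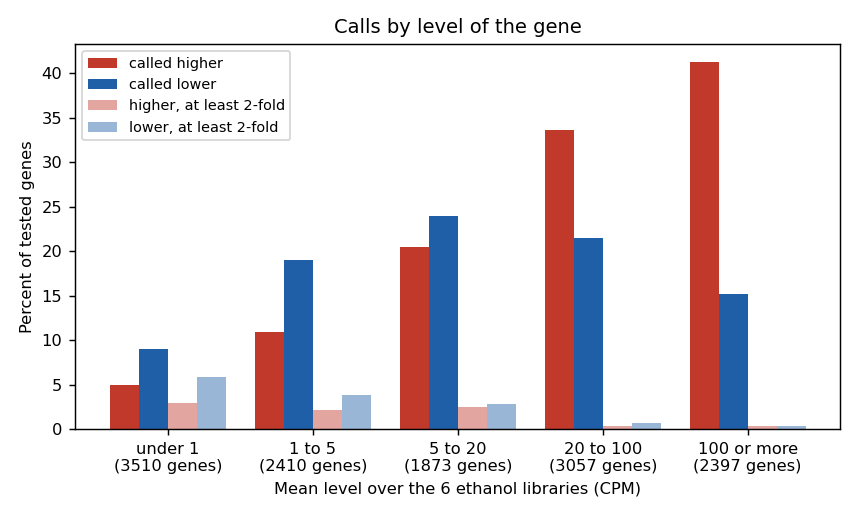
Percent of tested genes called higher or lower (solid bars) and called with at least a 2-fold change (pale bars) by mean level over the 6 ethanol libraries. The share that rose grows from 5.01% under 1 CPM to 41.2% at 100 CPM or more.

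Among protein-coding genes called without overlap, the largest gains in reads were in 5 abundant genes. Lgals1, the secreted lectin galectin 1, went from 8185 ± 304 to 10776 ± 542 CPM (log2 fold change 0.40, SE 0.06, edgeR adjusted p = 6.8e-05). Eef1a1, which carries aminoacyl-tRNA to the ribosome, went from 16638 ± 226 to 18238 ± 464 CPM, a rise of 9.6%. Hsp90ab1, a chaperone, Rplp0, a ribosomal stalk protein, and Tubb5, a beta-tubulin, came next with log2 fold changes of 0.34, 0.28 and 0.43. Among the same protein-coding genes Car3, the muscle carbonic anhydrase, lost most reads. It read 1618, 1474 and 1540.2 CPM in the Luc libraries and 503, 488 and 482 CPM in the Crebl2 libraries, a 3.14-fold fall with no overlap (log2 fold change −1.65, SE 0.07, edgeR adjusted p = 7e-10). The noncoding H19, given below, lost more reads than Car3. After Car3 the largest losses among these protein-coding genes were in genes of the extracellular space. They were Col3a1 (−0.12) and Col6a1 (−0.77), which are collagen chains, Igfbp5 (−0.23), which binds insulin-like growth factors, and Ogn (−0.68), a small proteoglycan. Near the threshold, the call of Col3a1 was lost with RLE scaling, DESeq2 and the replicate block and without Luc library 2 or 3 or Crebl2 library 2 or 3. The call of Eef1a1 was lost with no filter on low counts and in a fit of the 6 ethanol libraries alone, and that of Igfbp5 without Luc library 3, Crebl2 library 1 or Crebl2 library 2.

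Genes of muscle differentiation were among the deepest falls, with 13 of the 24 largest falls in a muscle list against 1 of the 24 largest rises. The lists were chosen with earlier results of these data known, so this count is a description. The share of all tested genes in a muscle list was not computed. Of 31 tested myogenic transcription factors, 13 fell and 6 rose (median −0.20), with 3 rises without Luc library 3 or Crebl2 library 1. Myog, myogenin, read 217, 215 and 177 CPM with the Luc siRNA and 15.9, 20.1 and 24.3 CPM with the Crebl2 siRNA. The groups lay far apart, and the mean fell 10.1-fold (log2 fold change −3.33, SE 0.15, edgeR adjusted p = 7.4e-10). The factors that mark the myoblast state before myogenin changed by smaller amounts. Myod1 fell from 232 ± 19.6 to 190.3 ± 14.2 CPM (log2 fold change −0.28, SE 0.08, edgeR adjusted p = 0.0091). Myf5 (−0.26) fell by a similar size, and Pax7 (−0.17) was not called. Among other factors of the list Mef2a (−0.43) and Hes6 (−0.51) fell. Msc, a repressor of myogenic factors known as MyoR, rose from 7.29 ± 0.185 to 13.9 ± 1.0 CPM (log2 fold change 0.93, SE 0.09, edgeR adjusted p = 9.4e-07).

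Among the 31 tested contractile and sarcomere genes, 17 fell and 3 rose, 15 of the falls at least 2-fold, and the median was −0.51. Actc1, cardiac alpha-actin, read 79.1, 77.5 and 61.3 CPM with the Luc siRNA and 6.35, 6.06 and 6.4 CPM with the Crebl2 siRNA (11.6-fold lower). Acta1, skeletal alpha-actin, read 322, 304 and 236 and 35.4, 32.7 and 39.4 CPM (8.01-fold lower). In both actins the Crebl2 libraries lay far under the lowest Luc library. Myom2, which ties myosin filaments at the M band, fell from 161 ± 4.85 to 36.9 ± 4.0 CPM (log2 fold change −2.12, SE 0.08, edgeR adjusted p = 1.5e-10). Its relative Myom3 (−2.98) fell too. Tnnc1, the calcium sensor troponin C, went from 78.1 ± 13.6 to 20.7 ± 1.75 CPM. Klhl41 (−2.30), Klhl40 (−2.44) and Lmod3 (−1.84), which guard thin filaments, were in the same group. The rises were small or at a low level: Xirp1 (0.32), Mylk2 (0.49) and Nebl (1.14), the last under 1 CPM. The call of Xirp1 was lost without Luc library 3 (0.27) or Crebl2 library 1 (0.23), and that of Nebl without any 1 library other than Crebl2 library 1 (1.07 to 1.21), so that 1 gene rose without Luc library 3. Of the other 30 listed sarcomere genes that were not tested, 16 had a countable share under 10%, Myh3 and the adult myosin heavy chains among them. No change is therefore given for these myosins.

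The start regions of the 3 protein-coding genes with the deepest falls at a mean of 5 CPM or more are shown. All 3 hold the E box CANNTG, the letters that myogenic factors are known to bind, as do 64.0% of promoters. In the Actc1 region CANNTG and TATAAA both lie after the RefSeq start. Each is 250 bases before to 50 after the start in RefSeq (GRCm38.p6), with CANNTG and TATAAA in capitals.
Actc1, chr2:114052826-114053125, minus strand: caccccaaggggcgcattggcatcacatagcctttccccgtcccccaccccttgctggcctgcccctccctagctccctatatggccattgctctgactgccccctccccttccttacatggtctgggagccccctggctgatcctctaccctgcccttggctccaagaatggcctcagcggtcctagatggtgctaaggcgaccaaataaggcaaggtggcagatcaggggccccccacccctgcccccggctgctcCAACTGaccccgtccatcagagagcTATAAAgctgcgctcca
Myog, chr1:134289754-134290053, plus strand: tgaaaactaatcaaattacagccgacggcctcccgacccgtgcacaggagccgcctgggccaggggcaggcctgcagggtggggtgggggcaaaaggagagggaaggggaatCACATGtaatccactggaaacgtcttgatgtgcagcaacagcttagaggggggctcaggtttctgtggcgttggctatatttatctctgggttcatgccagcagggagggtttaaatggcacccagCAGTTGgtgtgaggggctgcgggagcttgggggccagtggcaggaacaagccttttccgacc
Acta1, chr8:123894726-123895025, minus strand: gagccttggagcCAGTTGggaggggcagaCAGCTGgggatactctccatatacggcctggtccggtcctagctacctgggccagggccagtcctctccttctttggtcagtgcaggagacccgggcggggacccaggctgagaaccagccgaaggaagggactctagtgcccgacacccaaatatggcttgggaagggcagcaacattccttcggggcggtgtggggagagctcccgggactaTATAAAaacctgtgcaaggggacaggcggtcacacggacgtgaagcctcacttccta
CANNTG (a palindrome) was present in 64.0% of the 10500 promoters of 8491 tested protein-coding genes, in 67.7% of those of genes that fell and in 60.9% of those that rose. The share was 74.0% for genes that rose at least 2-fold and 73.5% for those that fell at least 2-fold. TATAAA, read on either strand, was in 7.2% of all promoters, 15% for rises and 14.6% for falls of at least 2-fold.

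Calcium handling genes changed in 1 direction: 13 of 19 tested genes fell and none rose (median −0.77). Atp2a1, the calcium pump SERCA1, read 53.2, 51.5 and 45.6 CPM with the Luc siRNA and 11.9, 14.1 and 15.6 CPM with the Crebl2 siRNA (log2 fold change −1.85, SE 0.09, edgeR adjusted p = 1.4e-09). Trdn (triadin) fell from 16.9 ± 0.586 to 3.75 ± 0.851 CPM and Hrc, a calcium-binding protein of the sarcoplasmic reticulum, from 12.4 ± 2.74 to 1.91 ± 0.308 CPM. Scn4a, the sodium channel of muscle, went from 1.67 ± 0.109 to 0.155 ± 0.0359 CPM. Smaller falls were in Cacng1 (−0.53), Kcnj2 (−0.58) and Jph1 (−0.39).

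Fusion and membrane genes were split. The fusion proteins Mymk (myomaker) and Mymx (myomerger) fell to 2.87 ± 0.509 and 0.67 ± 0.0848 CPM from 14.7 ± 2.16 and 5.49 ± 0.719 CPM. Cav3 (−2.72) and Ckm (−2.87) were also lower, both at about 1 CPM. Adam12, a membrane protease of fusing myoblasts, rose from 41.4 ± 4.88 to 84.5 ± 7.56 CPM (log2 fold change 1.03, SE 0.07, edgeR adjusted p = 7.1e-08), beside small rises in Itgb1 (0.22) and Jam2 (0.49). Among acetylcholine receptor and synapse genes 2 of 7 fell, Chrng (−1.49), the embryonic receptor subunit, and Lrp4 (−0.71), a receptor for agrin. Chrna1 (0.12), the alpha subunit at 992 ± 15.4 CPM in the Luc libraries, was not called, but passed with RLE scaling (0.12, edgeR adjusted p = 0.048), with DESeq2 (0.029) and without Crebl2 library 1 (0.16). Hfe2 (hemojuvelin), a BMP co-receptor of muscle, fell 7.98-fold, and Fst (follistatin), which binds activin and myostatin, rose from 9.36 ± 0.699 to 24.1 ± 0.881 CPM (log2 fold change 1.36, SE 0.07, edgeR adjusted p = 2.8e-09).

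Markers of the myoblast itself gave overlapping summed levels. Of 9 markers, 1 rose (0.18 for Vcam1) and 2 fell (Myod1 and Myf5), the call of Vcam1 being lost without Luc library 1 (0.14) or Crebl2 library 2 (0.15). Without Crebl2 library 1, 2 markers rose. Their summed level was 5220 to 5534 CPM with the Luc siRNA and 4985 to 5587 CPM with the Crebl2 siRNA. Des (−0.05), Itga7 (−0.05) and Cdh15 (0.00), all above 800 CPM, were not called. Of 18 markers of differentiated fibres 9 were tested and 8 fell, and their summed level was 545 to 700.2 CPM against 85 to 99.6 CPM. In a population of cells, fewer differentiating cells and less RNA per such cell cannot be told apart. Of 8 leukocyte markers, 5 had no read in the 6 libraries, but 3 of these had a countable share under 10%, where a lack of reads need not mean absence. The 3 tested leukocyte markers gave 1 fall and no rise. They summed to 40.8 to 46.7 CPM with the Luc siRNA and 32.3 to 34.9 CPM with the Crebl2 siRNA.

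**Figure D3:**
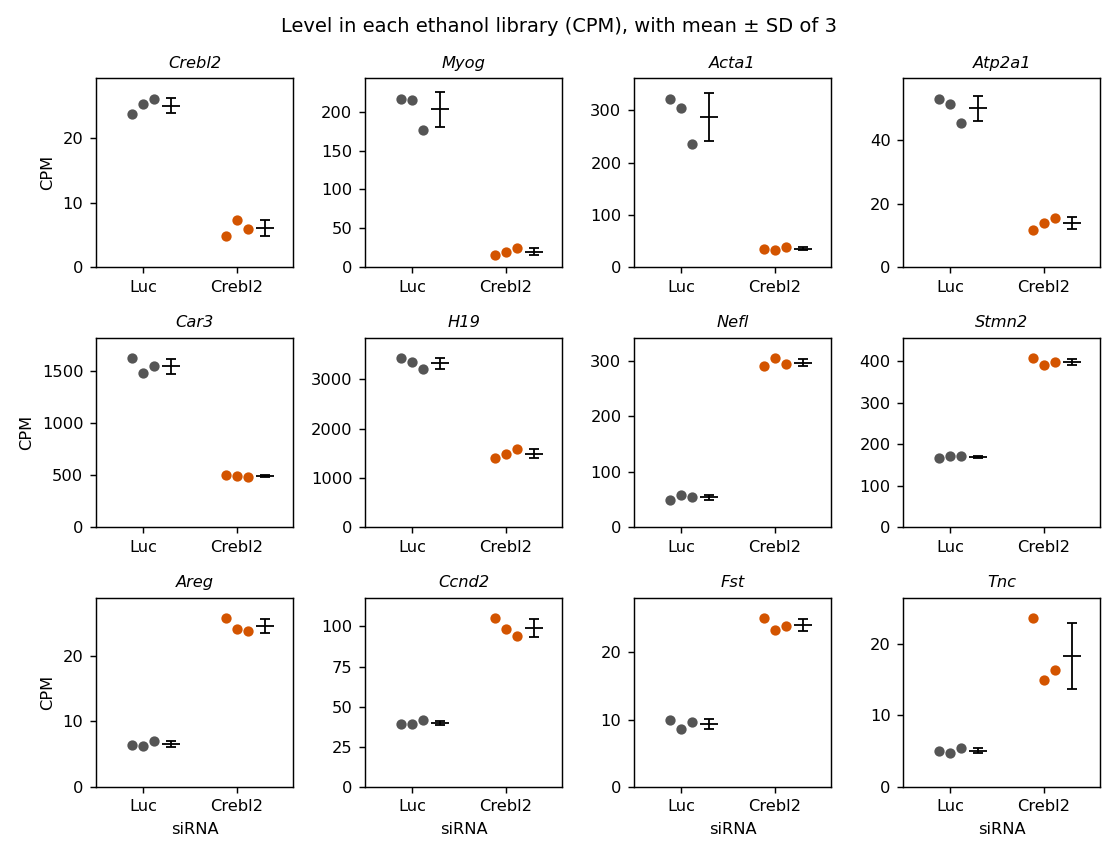
Level of 12 named genes in each of the 6 ethanol libraries (CPM, linear axes from 0), 1 point per library, with the mean ± SD of 3 libraries beside the points. In each panel the 3 Luc libraries and the 3 Crebl2 libraries do not overlap, with Nefl at 53.3 CPM against 296 CPM on average and Myog at 203 CPM against 20.1 CPM.

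Genes near silence after knockdown were few. Counting genes at 2 CPM or more with the Luc siRNA and under 0.5 CPM with the Crebl2 siRNA gave 8, and none in the opposite direction. Pgm5, a relative of phosphoglucomutase found at cell adhesions, read 3.47, 3.42 and 2.67 CPM and then 0.255, 0.21 and 0.408 CPM. Clu (clusterin, a secreted chaperone) read 3.34, 3.95 and 3.27 CPM and then 0.484, 0.39 and 0.36 CPM. Itgb1bp2 (−2.19), Srl (−2.45) and Tnxb (−2.20) had the same pattern, the last 2 with a countable share of 26.5% and 23.2%. Dyrk1a met the limits through Luc library 1 (4.48 CPM against 0.577 CPM in Luc library 3), its SE was 0.85, and its call was lost without Luc library 1 (−1.59) or any 1 Crebl2 library (−2.71 to −2.25).

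Neuronal cytoskeleton genes rose, the neurofilaments by the most. Nefl, the neurofilament light chain, read 48.6, 57.9 and 53.6 CPM with the Luc siRNA and 290.3, 304 and 294 CPM with the Crebl2 siRNA (5.55-fold higher, log2 fold change 2.47, SE 0.10, edgeR adjusted p = 1.5e-10). Nefm, the medium chain, read 10.2, 11.3 and 12 and 53.3, 53.1 and 50 CPM. Of 19 tested genes of the list 10 rose and 3 fell (median 0.29). The rises were 6 without Luc library 1 or Crebl2 library 1, and without the latter 1 gene fell. Stmn2, a microtubule regulator of growing axons, went from 169.5 ± 2.67 to 399 ± 7.82 CPM. Gap43 (1.09) and Tubb3 (0.84) rose with them, and Mapt (−1.48), which encodes tau, fell. Ptprn, a protein of secretory granules, rose from 3.72 ± 0.393 to 13.4 ± 1.27 CPM. Of 10 neuron markers 5 were tested, of which 3 rose (Nefl, Stmn2 and Tubb3) and none fell. Their summed level was 293.5 to 305.4 CPM with the Luc siRNA and 829.7 to 834.9 CPM with the Crebl2 siRNA. The markers Rbfox3, Syt1 and Snap25 had no read in the 6 libraries. Of the 5 untested markers 1 had a countable share under 10%, where a lack of reads need not mean absence. The annotation places Nefl on the plus strand inside the span of Nefm on the minus strand, and without a stated strand setting reads of the overlap cannot be assigned.

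Several secreted regulators of growth factors rose. Stc1 (stanniocalcin 1) went from 5.34 ± 0.376 to 27.9 ± 3.92 CPM (log2 fold change 2.39, SE 0.20, edgeR adjusted p = 3.7e-07). It inhibits the proteases Pappa and Pappa2, which free insulin-like growth factors from their binding proteins, and both of these rose as well, Pappa from 2.52 ± 0.132 to 10.6 ± 1.69 CPM and Pappa2 from 2.68 ± 0.107 to 8.66 ± 1.75 CPM. In all 3 genes the groups did not overlap. The IGF list as a whole went both ways (7 higher and 7 lower of 29), with Igfbp3 (0.50) and Igfbp4 (0.44) up and Igfbp5 (−0.23) and Irs2 (−0.42) down.

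All 4 rises among 11 tested EGF receptor ligands and receptors were ligands. Areg (amphiregulin) read 6.47, 6.18 and 7.07 CPM and then 25.8, 24.2 and 23.8 CPM (log2 fold change 1.91, SE 0.12, edgeR adjusted p = 2.1e-08). Hbegf went from 33.8 ± 1.3 to 72 ± 2.95 CPM and Ereg from 25.8 ± 2.21 to 40.9 ± 3.47 CPM, while Erbb3 (−0.55) fell. Without Luc library 1 or Crebl2 library 1 there were 2 falls in this list. In the immediate early list 11 of 32 rose and 9 fell. The rises were Fosl1 (1.21), an AP-1 subunit, Dusp4 (0.80), Dusp5 (0.79), Dusp6 (0.54) and Spry4 (0.74), which are known as feedback inhibitors of the ERK kinase pathway, and Plaur (0.77), Phlda1 (0.39) and Egr3 (0.47) among others. Several falls were in genes of the fast serum response, Fos (−0.65), Ier2 (−0.50), Klf2 (−0.55) and Dusp1 (−0.22) among them. Fosl1 went from 43.1 ± 1.43 to 99.2 ± 5.08 CPM and Fos from 26.7 ± 1.52 to 17 ± 0.998 CPM.

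Growth factors and cytokines outside these groups also split, 22 higher and 20 lower of 64. Sema7a, a membrane-anchored semaphorin, rose from 59.8 ± 0.571 to 165 ± 10 CPM without overlap (log2 fold change 1.46, SE 0.06, edgeR adjusted p = 1.5e-10). Clcf1 (0.84), Edn1 (0.98), Vegfc (0.90) and Pgf (0.43) rose. Wnt4 (−1.20), Chrd (−0.94), Ccn3 (−0.87), Kitl (−0.57) and Fgf10 (−0.52) fell. The Notch ligands went apart: Dll1 fell from 12.7 ± 0.714 to 4.72 ± 0.656 CPM (log2 fold change −1.43, SE 0.12, edgeR adjusted p = 2.1e-07), while Jag1 (0.60) and Jag2 (0.54) rose with the receptor Notch1 (0.48).

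Some of the largest rises are in genes of the cornified envelope of skin and of the mast cell protease and granzyme families. Sprr2k, a cornified envelope protein, read 1.11, 0.951 and 0.632 CPM and then 9.59, 9.03 and 10 CPM, the largest fold rise of the named genes (10.5-fold). Sprr1a went from 5.91 ± 0.405 to 26.4 ± 1.66 CPM. The proteases Mcpt8 (mast cell protease 8) and Gzme (granzyme E), which lie in the same stretch of chromosome 14, went from 1.84 ± 0.127 to 8.59 ± 1.11 CPM and from 3.01 ± 0.0728 to 10.6 ± 1.32 CPM. These groups did not overlap in any of the 4 genes. Sprr2k, Gzme, Hmga1b (1.36), Ly6c2 (−1.67) and Ifi27l2a have near-identical copies in the genome, so their values are uncertain. The wider keratin and envelope list held 4 rises and 2 falls in 14 genes, and Krt14 (−0.74) fell.

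Among 23 tested SRF and YAP target genes 10 rose and 3 fell, with a median of 0.03. Tagln (transgelin) read 101, 88.8 and 100.1 CPM with the Luc siRNA and 229, 214 and 231 CPM with the Crebl2 siRNA (log2 fold change 1.22, SE 0.06, edgeR adjusted p = 9.4e-10). Cnn1 (1.14), Acta2 (0.29) and Ankrd1 (0.46) rose. The falls were Ankrd2, a muscle ankyrin repeat protein, from 1.61 ± 0.453 to 0.15 ± 0.0269 CPM (−3.41 on the log2 scale), Ccn1 (−0.20) and Myl9 (−0.22), the last with a call lost without Luc library 1 or 3 or Crebl2 library 1 or 2. Of 7 tested smooth muscle markers 4 rose, Tagln, Cnn1 and Acta2 among them, and Smtn (−1.41), with 14.4% of its bases countable and under 1 CPM, fell. Cytoplasmic Actb (0.26) was also higher. Actin genes moved in opposite directions in the same libraries, Acta1 and Actc1 down and Acta2 and Actb up.

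Matrix lists went both ways. In the matrix list 11 genes rose and 13 fell of 46 (23.9% and 28.3%), and in the collagen list 8 rose and 7 fell of 33 (24.2% and 21.2%), where 21.4% and 17% of all tested genes did. The collagen shares and that of the matrix rises lie near these. The small proteoglycans moved apart. Lum (lumican) read 20.4, 21.7 and 20.4 CPM and then 4.26, 6.93 and 7.43 CPM. Dcn (decorin) fell from 17.8 ± 1.23 to 4.4 ± 0.95 CPM, and Omd (−1.43) and Ogn fell too, whereas Fmod (fibromodulin) read 65.3, 62.4 and 72.4 CPM and then 211, 161 and 164 CPM (log2 fold change 1.42, SE 0.10, edgeR adjusted p = 2.6e-08). Tnc (tenascin C) rose from 5.04 ± 0.331 to 18.4 ± 4.62 CPM and Has2, which makes hyaluronan, from 38 ± 3.19 to 84.9 ± 7.47 CPM. Among collagens Col5a3 (0.90), Col1a1 (0.54) and Col5a2 (0.35) rose, and Col6a1 (−0.77) and Col16a1 (−0.76) fell. Matrix proteases were 10 up and 10 down of 35, with Mmp14 (−0.65) and Plau (−0.57) lower and Plaur (0.77) and Ctsl (0.51) higher. Nid2 (−0.73) fell while its paralog Nid1 (0.42) rose.

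Genes for making ribosomes and proteins rose widely and by small steps. Ribosome assembly had the largest share of any list of at least 11 tested genes: 63 of 83 rose and 1 fell (Imp3, −0.34), against 21.4% and 17% of all tested genes, with a median of 0.37. The lists here and below were not matched for level. Of all genes at 20 to 100 CPM 33.6% rose, and 41.2% at 100 CPM or more. Gnl3 (nucleostemin) read 96.4, 98.3 and 101 CPM and then 156, 170.4 and 156 CPM, without overlap (log2 fold change 0.70, SE 0.05, edgeR adjusted p = 3.6e-08). Dkc1 (0.69), Nop56 (0.72), Ddx21 (0.61) and Ncl (0.36) are further examples. Cytosolic ribosomal proteins gave 41 rises and no fall in 68 genes (median 0.24), for example Rps23 (0.36) and Rpl4 (0.35). Translation factors gave 28 and none of 45 (1 fall without Luc library 2 or 3), with Eif4a1 (0.44), Pabpc1 (0.40) and Eef1g (0.50). Cytosolic aminoacyl-tRNA synthetases gave 11 and none of 15, with Aars (0.47) and Tars (0.45). Mitochondrial ribosomal proteins gave 37 rises and 3 falls of 69, and 24 rises without Luc library 2. In the proteasome list 28 of 46 rose, Psmd2 (0.34) and Psma7 (0.42) among them, and the 4 falls were Psmb8 (−1.23), Psmb9 (−0.67), Psmb10 (−0.29) and Psme1 (−0.41), the subunits of the immunoproteasome and its activator that interferon is known to induce. The call of Psmb8 was lost without Luc library 1 (−0.94), that of Psmb10 without Luc library 1 or 2 or Crebl2 library 1 or 2 (−0.30 to −0.21), and that of Psmb9 without any 1 library other than Crebl2 library 3 (−0.71 to −0.40). Psmb9 was also lost with DESeq2 and in a fit of the 6 ethanol libraries, and Psmb10 with the replicate block, so that without Luc library 1 or 2 or Crebl2 library 1 or 2 the proteasome falls were 1 or 2.

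**Figure D4:**
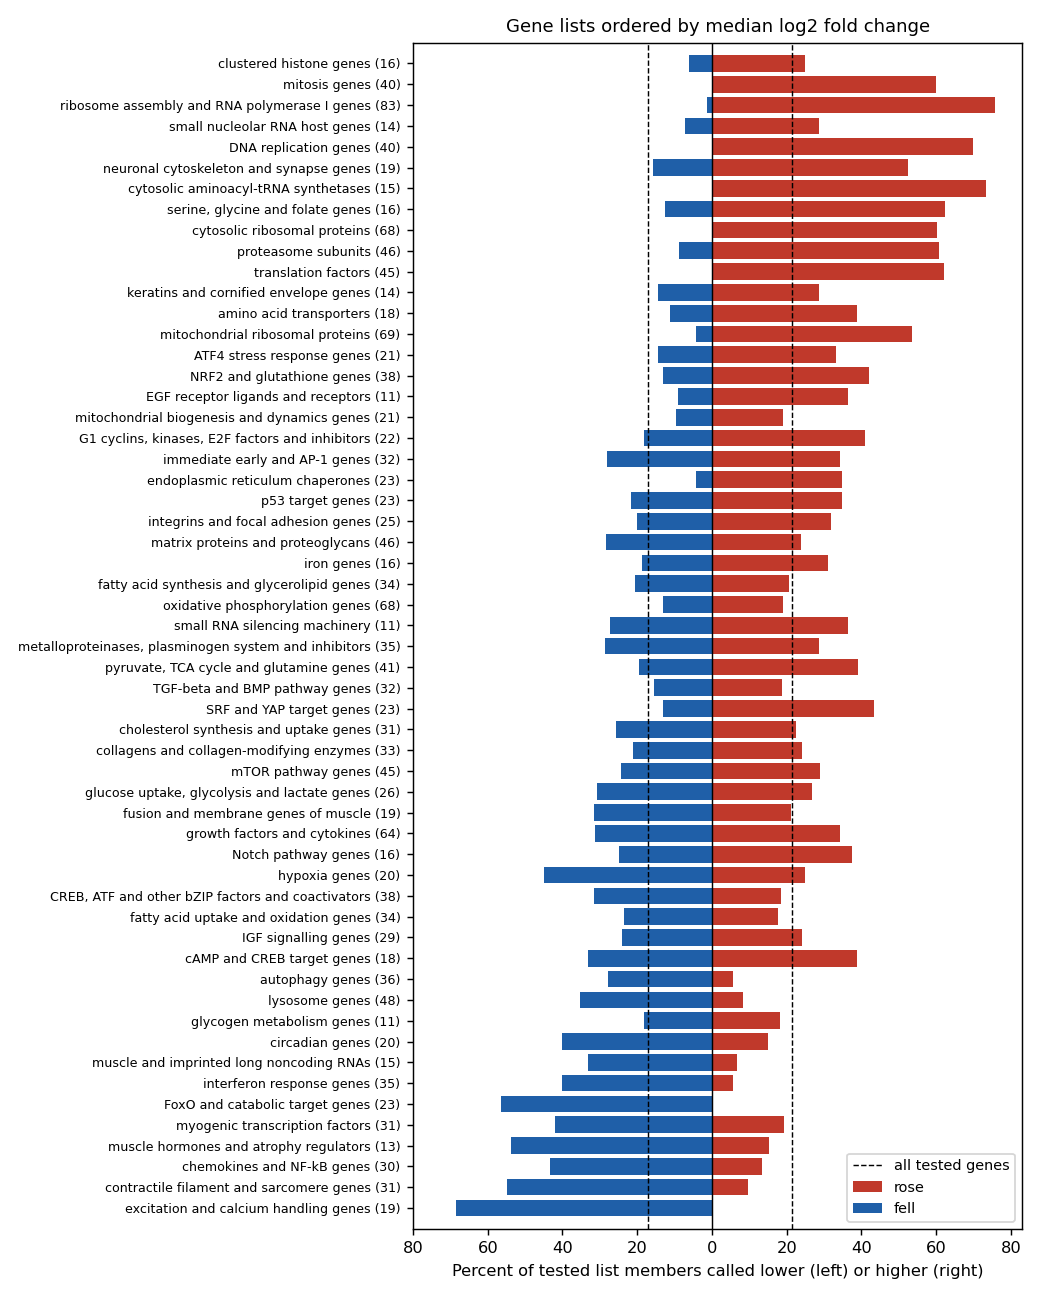
Percent of tested members called higher (right, red) or lower (left, blue) for the lists with at least 11 tested genes, ordered by median log2 fold change, with the number tested in parentheses. Dashed lines give the shares over all 13247 tested genes (21.4% higher, 17% lower), and growth and cell division lists stand at the top, muscle, chemokine and FoxO lists at the bottom.

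Cell division genes rose in the same small steps. Replication had 28 rises and no fall in 40 genes (median 0.30), for example Rrm2 (0.44), Tyms (0.43) and Mcm2 (0.38). Mitosis had 24 rises and no fall in 40 (median 0.37), for example Plk1 (0.49), Bub1b (0.47) and Ccnf (0.54). G1 regulators were mixed (9 rises and 4 falls of 22, with 2 falls without Luc library 2 or Crebl2 library 3), but Ccnd2, a D-type cyclin, read 39.5, 38.9 and 41.5 CPM with the Luc siRNA and 105, 98.5 and 93.7 CPM with the Crebl2 siRNA (log2 fold change 1.31, SE 0.06, edgeR adjusted p = 6.8e-10). Ccnd1 (0.33) and Ccne1 (0.83) rose too, and the third D cyclin, Ccnd3 (−0.28), with 15.4% of its bases countable, was not called.

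Metabolic lists went in both directions. In glycolysis and glucose uptake 7 of 26 rose and 8 fell (median −0.01), with 5 falls without Luc library 3 or Crebl2 library 1. Hk2 (hexokinase 2) rose from 32.5 ± 3.41 to 56.8 ± 4.75 CPM and Slc2a1, the glucose transporter GLUT1, from 222 ± 7.86 to 290.5 ± 7.87 CPM. Slc2a4, the insulin-regulated transporter GLUT4, fell from 0.817 ± 0.0488 to 0.344 ± 0.0408 CPM, and Ldhb (−0.72) fell. Gapdh and Ldha were not tested here, and nearly none of their bases were countable. Of 41 pyruvate and citric acid cycle genes 16 rose and 8 fell (5 without Luc library 1, Crebl2 library 1 or Crebl2 library 2), with rises in Idh3a (0.45), Cs (0.40) and Mdh2 (0.34), while Pdk1, the kinase that shuts pyruvate dehydrogenase, fell from 129 ± 0.443 to 71.9 ± 4.69 CPM (log2 fold change −0.84, SE 0.05, edgeR adjusted p = 5.8e-09). Nuclear genes of oxidative phosphorylation stood near the background, 13 and 9 of 68.

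Lipid lists had shares near those over all genes (21.4% higher and 17% lower). For fatty acid uptake and oxidation the counts were 6 and 8 of 34, for synthesis 7 and 7 of 34 and for cholesterol 7 and 8 of 31. Without Crebl2 library 1 the falls in synthesis were 4, and without Luc library 2 the rises in the cholesterol list were 4. Acsbg1, an acyl-CoA synthetase known from brain, read 10.5, 8.94 and 10.3 CPM and then 43.2, 37.1 and 35.7 CPM (log2 fold change 1.97, SE 0.12, edgeR adjusted p = 1.6e-08). Fabp5, a fatty acid carrier, rose from 104 ± 4.27 to 230.0 ± 4.38 CPM. Lpl (−0.33) and Acadm (−0.21) fell, and within the cholesterol list Insig1 (−0.39) fell.

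Serine and folate enzymes rose as a list, 10 of 16 with 2 falls (median 0.28). Mthfd2, the mitochondrial folate enzyme, went from 82.8 ± 2.65 to 134 ± 1.2 CPM (log2 fold change 0.69, SE 0.06, edgeR adjusted p = 3.6e-07). Shmt2 (0.63), Phgdh (0.60) and Mthfd1 (0.48) rose as well. Amino acid transporters followed with 7 rises and 2 falls of 18, including Slc7a5 (0.60) and Slc7a1 (0.67). The wider ATF4 list held 7 rises and 3 falls in 21: Sesn2 (0.80), Trib3 (0.70) and Chac1 (0.63) rose, and Fgf21 (−2.75) fell. Atf4 (0.14) itself was called, but not without Crebl2 library 3 (edgeR adjusted p = 0.055) nor in a fit of the 6 ethanol libraries (0.074).

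Catabolic lists held more falls than rises, where 17% of all tested genes fell and 21.4% rose. No FoxO target rose and 13 of 23 fell (median −0.20, with 1 rise without Luc library 1 or Crebl2 library 2), led by Map1lc3a, an autophagosome protein, at 192 ± 13.1 and then 116 ± 11.4 CPM, with Sesn3 (−0.56), Fbxo32 (−0.31) (atrogin 1) and Foxo3 (−0.30). Autophagy genes gave 10 falls and 2 rises in 36 (1 rise without Luc library 1 or Crebl2 library 2), and lysosome genes 17 and 4 in 48, with the glycosidases Naglu (−0.75) and Hexa (−0.30) lower. In the circadian list 8 of 20 fell and 3 rose, with Dbp (−1.07), Per3 (−0.47) and Tef (−0.62) among the falls. Hypoxia genes gave 9 falls and 5 rises in 20, among them Car9, a carbonic anhydrase like Car3, at 10.2 ± 0.824 and then 4.4 ± 0.296 CPM, and Ndrg1 (−0.68). The NRF2 list ran the other way, 16 rises and 5 falls of 38 (3 falls without Luc library 1, Luc library 2 or Crebl2 library 1), with Gclc (0.42), Txnrd1 (0.26) and Prdx6 (0.41).

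Among immune lists falls outnumbered rises, where 17% of all tested genes fell and 21.4% rose. Of 30 chemokine and NF-kB genes 13 fell and 4 rose (median −0.32). Cxcl12 read 128, 130.1 and 120.4 CPM with the Luc siRNA and 46, 51.9 and 49.8 CPM with the Crebl2 siRNA (log2 fold change −1.36, SE 0.05, edgeR adjusted p = 1.6e-10). Ccl7 went from 52.4 ± 1.6 to 20.3 ± 1.93 CPM, Ccl8 from 7.35 ± 0.985 to 1.55 ± 0.239 CPM and Ccl2 (−0.74) fell too, while Ptx3 (1.20) and Ptgs2 (0.61) rose. Of 35 interferon response genes 14 fell and 2 rose, Ifi27l2a from 13 ± 1.53 to 1.89 ± 0.61 CPM, Parp14 (−1.03), Ddx58 (−0.37) (a sensor of foreign RNA) and B2m (−0.19) among the falls. The interferon rises were 0 without Luc library 1, Luc library 2 or Crebl2 library 1 and 1 without Crebl2 library 3.

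Crebl2's own family went both ways. Of 38 tested bZIP factors and coactivators, 12 fell, Crebl2 included, and 7 rose. The falls were 7 without Luc library 2. Cebpa, a differentiation factor of fat and other tissues, went from 5.33 ± 3.1 to 1.77 ± 0.455 CPM, a call that was lost without Luc library 1 (−1.11), and Creb3l1 (0.49) rose. The CREB coactivators Crtc1 (−0.43) and Crtc2 (0.18) went apart. Known cyclic AMP targets gave 7 rises and 6 falls of 18, with Areg, Pde4b (0.37) and Pde4d (0.30) up and Fos, Per2 (−0.42) and Irs2 down.

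The full palindrome TGACGTCA lay in 3.0% of the 10500 promoters, in 3.9% of those of genes that rose and in 2.4% of those that fell. Its part TGACG, on either strand, was in 30.6%, 35.1% and 27.8%. Among promoters of genes that changed at least 2-fold it was in 17.3% for rises and 19.7% for falls, and the full palindrome was in 4 of 127 and 5 of 294 of them. The start regions of the 2 genes above 5 CPM that rose at least 2-fold and hold it are shown, with TGACGTCA, CANNTG and TATAAA in capitals (RefSeq, GRCm38.p6). Hhip, a cell-surface inhibitor of Hedgehog, rose from 32.5 ± 3.85 to 65.1 ± 4.51 CPM.
Areg, chr5:91139349-91139648, plus strand: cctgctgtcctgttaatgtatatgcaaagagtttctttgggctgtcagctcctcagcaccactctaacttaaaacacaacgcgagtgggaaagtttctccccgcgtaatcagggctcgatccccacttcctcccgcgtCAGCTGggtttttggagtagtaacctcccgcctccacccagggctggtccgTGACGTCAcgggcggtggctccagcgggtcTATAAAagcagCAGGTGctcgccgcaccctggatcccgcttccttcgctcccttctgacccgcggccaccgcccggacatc
Hhip, chr8:80057959-80058258, minus strand: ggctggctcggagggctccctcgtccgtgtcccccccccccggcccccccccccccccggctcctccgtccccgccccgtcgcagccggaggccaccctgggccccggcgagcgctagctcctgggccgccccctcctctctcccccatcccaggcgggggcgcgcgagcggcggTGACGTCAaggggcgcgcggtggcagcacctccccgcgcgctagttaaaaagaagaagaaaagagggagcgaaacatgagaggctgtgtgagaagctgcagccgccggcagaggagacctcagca
The palindrome begins 61 bases before the RefSeq start of Areg and 75 before that of Hhip, and a match is a description of letters, not of binding.

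Of 1509 tested long noncoding RNAs 189 fell (12.5%) and 112 rose (7.42%), where 18.3% of 10986 protein-coding genes fell and 24.2% rose. The 2 classes were not matched for level, and of all genes under 1 CPM 9% fell and 5.01% rose. H19, the imprinted RNA that is abundant in embryonic muscle, read 3426, 3351 and 3207 CPM with the Luc siRNA and 1395, 1484 and 1577 CPM with the Crebl2 siRNA (log2 fold change −1.16, SE 0.07, edgeR adjusted p = 7.4e-09). Malat1 (−0.77), a nuclear RNA, fell with a wide error (SE 0.22) and a call that was lost without Luc library 2 (−0.56) or Crebl2 library 3 (−0.67), and Mir22hg (−0.57) and Neat1 (−0.46) were lower. Platr3 rose from 6.12 ± 0.233 to 19 ± 1.58 CPM. BC051077, Gm13075 and A330069E16Rik were called higher by 1.91, 1.5 and 1.47 on the log2 scale. Luc library 2 read BC051077 far under its group, at 0.618 CPM where the Luc libraries held 12.6, 0.618 and 11.1 CPM, and did likewise for the other two. Without it the 3 values were 1.35, 1.00 and 0.93. The call of A330069E16Rik was lost with DESeq2 (1.46) and without Crebl2 library 1 (1.39).

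Gene families defined by their symbol stem, with at least 15 tested members, gave 66 groups, and those named here were chosen after their values were seen. Over all protein-coding genes in this count 24.6% rose and 18.4% fell. RNA helicases of the Ddx stem rose in 17 of 31 and fell in 1, WD repeat proteins (Wdr) rose in 20 of 50 and fell in 2, and centrosomal Cep genes rose in 13 of 28 and fell in 1. The Rab stem, small GTPases of vesicle traffic, held 14 falls and 3 rises in 46. Nudt hydrolases fell in 7 of 15 and cytochrome P450 (Cyp) genes in 9 of 23. Zinc finger genes of the Zfp stem, the largest group, gave 12.5% higher and 9.6% lower of 281.

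The 6 rapamycin libraries repeat the siRNA contrast in cells not used above. Of the 2836 genes that rose in ethanol, 93.5% were higher with the Crebl2 siRNA in rapamycin too, 1678 (59.2%) were called higher there and 11 lower. Of the 2246 that fell, 95% were lower, 1495 (66.6%) were called lower and 16 higher. In rapamycin 33.1% of tested genes were called in either direction. Pearson's r of the fold changes was 0.75 across 13247 genes and 0.88 across the 5082 called in ethanol, a description, since genes share libraries and are not independent. All 48 of the largest rises and falls in ethanol, Crebl2 included, were called in the same direction in rapamycin, Nefl by 2.72, Stc1 by 3.26, Myog by −3.06 and Hfe2 by −2.67.

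**Figure D5:**
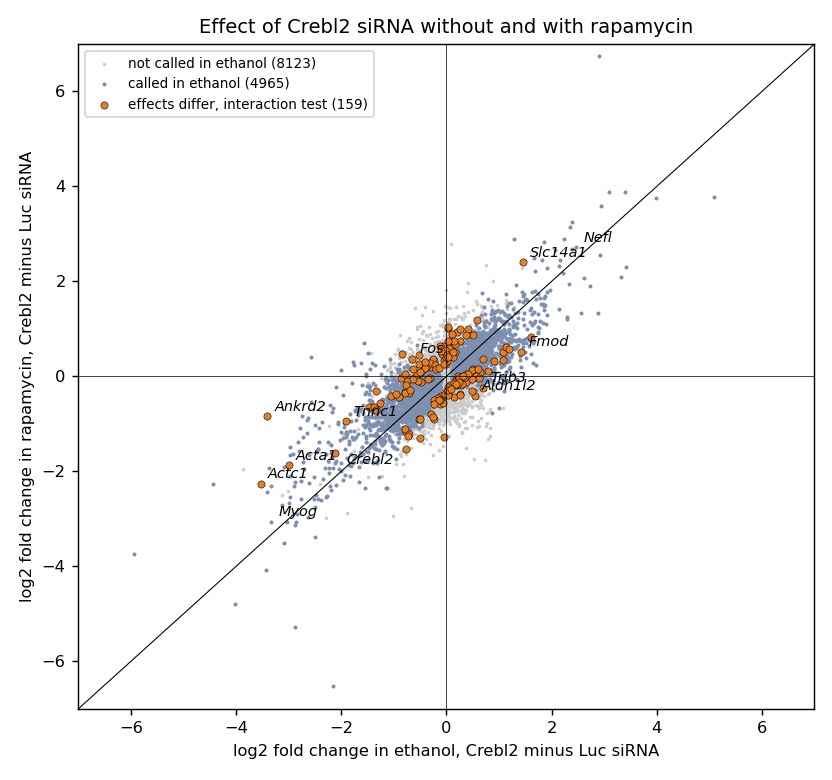
Log2 fold change of Crebl2 siRNA against Luc siRNA in the ethanol libraries (horizontal) and in the rapamycin libraries (vertical), 1 point per tested gene, with the diagonal of equal effects. The 159 genes in orange differ between the conditions by the interaction test. Actc1, Acta1 and Tnnc1 lie above the diagonal, with smaller falls in rapamycin, where their Luc level was lower than in ethanol.

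The interaction test called 159 genes (1.2%), 81 (0.611%) with a higher and 78 (0.589%) with a lower effect in rapamycin. This count was 94 without Luc library 2 and 102 without Crebl2 library 1, and 377 with DESeq2. Of 31 sarcomere genes 7 were called, all with a higher log2 fold change in rapamycin. Examples are Actc1 (1.27, SE 0.19, edgeR adjusted p = 0.0029), Acta1 (1.13), Tnnc1 (0.97), Tmod1 (1.04) and Myom2 (0.50). Their Luc level differed too: Actc1 read 72.6 CPM in ethanol and 16.6 CPM in rapamycin, Acta1 287 and 103, Tnnc1 78.1 and 41.9. With the Crebl2 siRNA Actc1 read 6.27 CPM in ethanol and 3.47 CPM in rapamycin, Acta1 35.8 and 28.1, Tnnc1 20.7 and 21.8. None of 19 calcium handling genes was called, but their median also moved up, from −0.769 in ethanol to −0.365 in rapamycin. With 1.2% of all genes called, this absence of calls does not set them apart from the sarcomere genes. Myog itself was not called (0.28, SE 0.22, edgeR adjusted p = 0.64). Fos went from −0.65 in ethanol to 0.37 in rapamycin, and Slc14a1, a urea transporter, rose further there (1.46 against 2.41). Of 21 ATF4 genes and 18 amino acid transporters 2 each were called. Trib3 went from 0.70 to −0.24, Aldh1l2 from 0.54 to −0.40, Chac1 from 0.63 to −0.04 and Slc7a5 from 0.60 to 0.16. Fmod rose less in rapamycin (0.52), and Tent5c (−0.49 and −1.30) and Krt13 (0.49 and −0.31) had lower effects there. The Luc level of Fmod was 66.7 CPM in ethanol and 308 CPM in rapamycin. The call of Myom2 in this test was lost without any 1 library other than Crebl2 library 3, that of Slc14a1 without Luc library 1 or 2 or Crebl2 library 1, and that of Krt13 without any 1 library other than Luc library 1.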

How the data were processed

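RNA was sequenced from C2C12 myoblasts in 12 libraries, 3 for each of 4 groups (siRNA against Crebl2 or Luc, each with ethanol or rapamycin). Raw read counts per transcript were deposited by the authors in a single table of 58611 transcripts. Trim Galore, TopHat and HTSeq and the builds mm9 and GRCm38 are listed in the notes the submitters gave on processing, with neither version nor order. The strand setting, the annotation release and how shared reads were treated are not given in the sources used here. Transcript identifiers matched GENCODE M21 (GRCm38) for 99.41% of rows, and counts were summed per gene. Gene counts had been assumed when the tests were chosen.

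All 12 libraries entered 1 fit in R 4.3.3 with edgeR 4.0.16 (quasi-likelihood, TMM scaling, minimum count of 10, Benjamini-Hochberg adjustment), and the 6 ethanol libraries gave the main contrast. The biological coefficient of variation was 6.9%. Each mean carries the SD of 3 libraries. Libraries of 33404087 to 42891015 counts set the counting precision. On data simulated for this contrast (13024 genes), 79.2% of 2-fold and 55.1% of 1.5-fold changes were recovered and 5.88% of calls were false. Only 48 or 49 genes were changed at each of the folds 1.5, 2, 4 and 8 there. The real contrast called 38.4% of genes, so these rates need not hold for it.

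Named by rule were Crebl2, 24 rises and 24 falls of largest fold with at least 5 CPM without overlap, the 5 largest gains and 5 largest losses in CPM, the 4 members of smallest p in each list, the 5 largest rises and falls of long noncoding RNA, and the 5 largest interactions in each direction. The rises, falls, gains and losses, other than those of long noncoding RNA, were taken among called protein-coding genes. Other members of the lists, the genes near silence, Hhip and the gene families were chosen after their values were seen. The members and lists were chosen with earlier results of these data known. Alternatives were RLE scaling, DESeq2 1.42.0, other filters, the replicate number as a block, a fit of the 6 ethanol libraries, protein-coding genes, genes with a countable share of at least 90%, and leaving out each ethanol library. Some results the rule names are not reported here.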

Additional observations from a re-analysis of the deposited data

Results flagged for a closer look

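The effect of the Crebl2 siRNA differed between the rapamycin and the ethanol libraries in 159 genes by edgeR's interaction test. Differences below are the log2 fold change in rapamycin minus that in ethanol. Among the genes described above, those with a higher value in rapamycin included these genes known from muscle: Ankrd2 (2.58), at under 2 CPM, Actc1 (1.27), Acta1 (1.13), Tmod1 (1.04), Tnnc1 (0.97), Hes6 (0.60), Myom2 (0.50), Cdh15 (0.41), Itga7 (0.39) and Chrna1 (0.28). Higher values were also found for Fos (1.03), Slc14a1 (0.95), Mapt (0.84), Ccn3 (0.83), Erbb3 (0.59), Fbxo32 (0.59), Dusp1 (0.46) and Ccn1 (0.35).

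Lower values in rapamycin were found for Aldh1l2 (−0.94), Trib3 (−0.94), Chac1 (−0.67) and Slc7a5 (−0.44), for Fmod (−0.91) and Col6a1 (−0.40), and for Tent5c (−0.80), Krt13 (−0.80) and Ptx3 (−0.62). Other muscle genes, such as Myog (0.28), Mymk (0.185), Atp2a1 (0.44), Trdn (0.47) and Hrc (0.75), also had higher values but were not called. The calls of Ankrd2 (without any 1 library other than Luc library 3), Cdh15 (without Luc library 1 or 2 or Crebl2 library 1) and Chrna1 (without any 1 library other than Crebl2 library 3) were lost. With the replicate number as a block the calls of Cdh15, Chrna1, Itga7, Ccn1, Myom2, Slc14a1 and Krt13 were lost.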

How the results depend on the processing

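The fall of Crebl2 (−2.05 on the log2 scale) kept its direction and call under every alternative run, between −2.20 and −1.91 with single libraries left out. It had no value among genes with a countable share of at least 90%. The 2836 rises became 2447 to 2665 without 1 library and 2110 among genes with a countable share of at least 90%, and the 2246 falls became 1805 to 2089 and 1621. Rises of at least 2-fold (223) numbered 198 to 239 without 1 library and 121 at a minimum count of 50. Falls of at least 2-fold (387) numbered 336 to 464 without 1 library, 210 at a minimum count of 50 and 252 at the countable share of at least 90%, 2 settings that test fewer genes. The 159 interaction genes became 377 with DESeq2, 415 with no filter on low counts, and 94 (without Luc library 2) to 131 without 1 library. The cause was not tested. Rises made up 55.8% of calls, 58.7% with DESeq2 and 48.6% with no filter. In a fit of the 6 ethanol libraries alone they made up 49.8% (2254 rises and 2274 falls among 12726 genes). The scalings differed by 0.0061 on the log2 scale.

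Deviations of same-numbered libraries from their group means correlated at −0.001, 0.11 and −0.116, within the range of differently numbered ones (−0.172 to 0.197). With 3 libraries a group this cannot tell whether the replicate numbers pair the libraries. With the replicate number as a block Crebl2 was at −2.05, 2625 genes rose and 2048 fell, 216 and 364 of them at least 2-fold, and 91 interaction genes were called.

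Of 229 other named genes 213 kept their call in ethanol under every alternative that gave a value, and none reversed. Of 126 counts over lists, 71 stayed within 1.5 times and 55 did not under some alternative, 30 of these with 1 library left out. Those given in the report that 1 library moved are stated there with their values. At 3 libraries a group, small changes of genes under 1 CPM are not detectable. If shared reads were dropped, genes with few countable bases are read from a small part of their length.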
